A study of Mus musculus with 2 samples.

Results

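The 10 iron sensing and hepcidin genes examined here were Hamp, Hamp2, Hfe, Tfr2, Tfrc, Trf, Fth1, Bmp6, Id1 and Slc40a1, and they were matched by gene symbol among the 43280 symbols with deposited read counts. The study compared mature hepatocytes (MHs) with small hepatocytes (SHs), hepatocyte progenitors of small size that the study used to build liver organoids. Both cell types were taken from the same healthy C57BL6 mice, aged 20 weeks by the labels and younger by the study's methods, after collagenase perfusion of the liver. MHs were pelleted at low speed and cleared of dead cells on Percoll without sorting, whereas SHs came from the supernatant, passed over Percoll and were sorted by FACS for ICAM-1 and against CD31, CD45 and EpCAM. There was 1 poly(A) library of each, with 16979136 counted reads in MHs against 42356444 in SHs, and the methods name 3 mice without saying how their cells were combined. Levels are given as reads per 1000000 counted reads (RPM), and the ratio of SHs over MHs on the log2 scale, after 0.5 reads were added to each count. Every interval is a 95% Clopper-Pearson interval and covers the counting error of reads only. Reads without molecular identifiers are not independent molecules, so the intervals may be too narrow even for that. With 1 library per condition there was no replicate, no test and no p-value, so each difference is one between these 2 libraries.

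Hepatocytes set the iron balance of the body through hepcidin, the peptide hormone encoded by Hamp, which binds the iron exporter ferroportin (Slc40a1) and causes its degradation. They read the iron load by transferrin, made from Trf, which binds the transferrin receptors encoded by Tfrc and Tfr2, and by the membrane protein HFE, which associates with these receptors. A second input is BMP6, a ligand made mainly by sinusoidal endothelial cells in the liver, which acts through SMAD proteins to induce Hamp and the common BMP target Id1. Iron inside the cell is stored in ferritin, whose heavy chain is encoded by Fth1.

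The hepcidin genes are close paralogs, and their promoters are shown because BMP and interleukin-6 signals reach Hamp through short elements in this stretch. The bases lie 130 to 61 before the transcription start in RefSeq (GRCm38.p6, minus strand), at chr7:30944090-30944159 for Hamp and chr7:30924242-30924311 for Hamp2. Capitals mark GGCGCC, the core of the BMP-responsive element, and TTCNNNGAA, the form of a STAT site. Both motifs are their own reverse complements and they do not overlap here.
Hamp: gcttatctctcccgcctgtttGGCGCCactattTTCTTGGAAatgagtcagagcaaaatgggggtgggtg
Hamp2: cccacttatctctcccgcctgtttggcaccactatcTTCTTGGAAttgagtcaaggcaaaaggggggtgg
Hamp held GGCGCC at -109 to -104 and TTCNNNGAA at -97 to -89, counted from the start. Hamp2 held TTCNNNGAA at -94 to -86 and no GGCGCC, and the bases aligned with that motif differed by G4A, counted from 1 at the first base of the motif in Hamp. The promoter windows of both genes were 91.1% identical. Of 32851 windows of the same length at mouse gene starts, 11.9% held GGCGCC and 8.30% held TTCNNNGAA. Promoters of 7 of the 10 genes were in the table, and of the others only Tfrc held one of the motifs, GGCGCC at -89 to -84 of 1 of its 2 starts.

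A second shared feature was the iron-responsive element, the hairpin in a messenger RNA that iron regulatory proteins bind when iron is low. In a 5′ UTR, as in ferritin and ferroportin, binding blocks translation, and in the 3′ UTR of Tfrc it protects the messenger from decay. The GENCODE M21 transcripts were searched on the sense strand for the loop CAGTGN with a last base other than G, preceded by an unpaired C and 5 bases that could pair with the 5 bases after the loop, G with T included. The element was found in 3 of the 10 genes, Fth1, Slc40a1 and Tfrc, and in 1.01% of the 21901 protein-coding genes searched. It is shown for these genes and for Ftl1, the ferritin light chain, with the 6 loop bases in capitals. The positions, on mm10, are chr19:9982732-9982761 for Fth1 (plus strand, 5′ UTR), chr7:45459778-45459807 for Ftl1 (minus strand, 5′ UTR), chr1:45925464-45925493 for Slc40a1 (minus strand, 5′ UTR), and chr16:32631219-32631248, chr16:32631598-32631627, chr16:32631663-32631692 and chr16:32631710-32631739 for the 4 elements of Tfrc (plus strand, 3′ UTR), in this order.
Fth1: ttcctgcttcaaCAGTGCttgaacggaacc
Ftl1: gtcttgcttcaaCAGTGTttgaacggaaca
Slc40a1: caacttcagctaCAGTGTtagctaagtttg
Tfrc element 1: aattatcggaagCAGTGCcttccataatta
Tfrc element 2: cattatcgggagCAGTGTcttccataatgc
Tfrc element 3: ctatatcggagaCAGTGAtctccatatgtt
Tfrc element 4: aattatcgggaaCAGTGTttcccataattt

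The 2 libraries held hepatocyte RNA and differed in other cell types and in zone markers. Alb was the gene with the most reads in each, and the 10 hepatocyte markers summed to 84290 RPM in MHs against 89834 in SHs, with a median log2 ratio of 0.03. The 10 endothelial markers summed to 82.2 RPM in MHs against 4.49 in SHs, the 11 macrophage markers to 22.6 and 1.04, and the 10 stellate cell markers to 26.1 and 2.55. Intervals lay under 0 for 10 of 10 endothelial genes, 8 of the 9 macrophage genes and 9 of the 9 stellate genes with at least 10 reads. Only SHs had been sorted against CD31, encoded by Pecam1 of the endothelial list, and against CD45. This sort selected for lower endothelial and immune cell markers in SHs, so their difference is not a finding about SHs. The centrifugation steps also differed, and the part of each step in the marker levels was not tested. In SHs Lyve1 and Marco were at 0 reads, beside 14 and 3 in MHs, so Marco did not pass the minimum of 10 reads. In bulk RNA, fewer cells of a type and less RNA per cell cannot be told apart. The 4 haemoglobin genes examined had between 0 and 9 reads in either library. The 9 markers of ZONE3, near the central vein, were all lower in SHs, with a median log2 ratio of -1.89, and the 8 of ZONE1, near the portal vein, all higher, with a median of 0.48. The part of these differences in the values of the iron genes was not tested.

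All 10 iron genes had reads in both libraries and at least 10 over both. Together they took 0.220% (0.217 to 0.222) of the reads in MHs and 0.240% (0.239 to 0.242) in SHs. Most differed little between SHs and MHs. The intervals of Hamp, Trf, Fth1 and Bmp6 lay over 0, that of Hfe lay under 0, and those of Hamp2, Tfr2, Tfrc, Id1 and Slc40a1 included 0. Among the 15521 genes with at least 10 reads, 16.8% had an interval over 0 and 15.5% one under 0. Whether an interval clears 0 depends on read depth, and these shares, here and beside the lists below, were not matched for depth. Of the 10 hepatocyte markers, 6 had an interval over 0 and 4 under 0, at a median log2 ratio of 0.03. Of the 10 iron genes, 1, Bmp6, was at least 2-fold higher with an interval over 0, as were 2.00% of all genes. None of them was at least 2-fold lower with an interval under 0, as were 4.46% of all genes. The median log2 ratio of the 10 iron genes was 0.05, beside 0.02 for all genes.

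**Figure D1:**
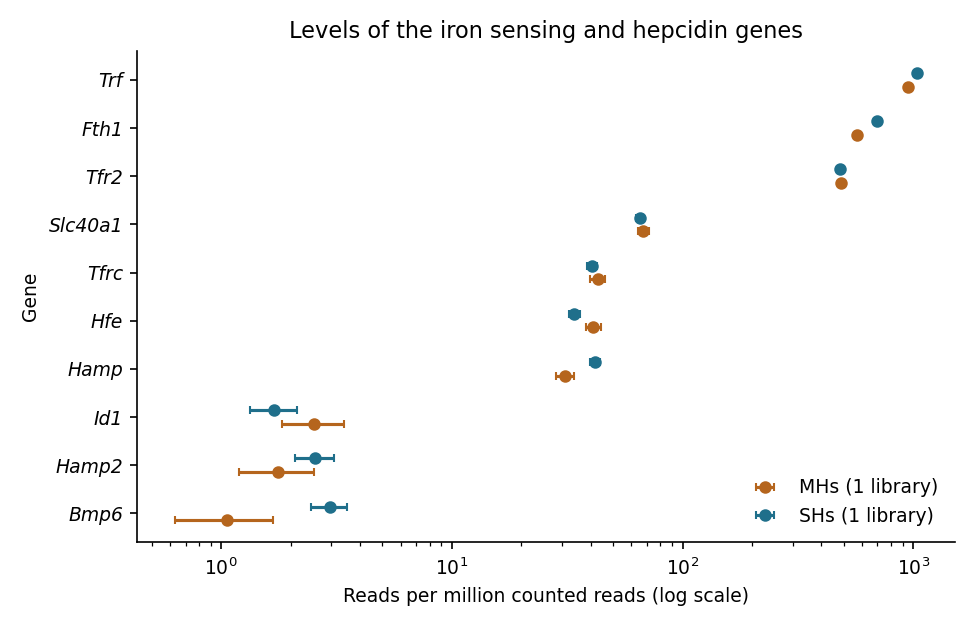
RPM (log scale) of each of the 10 genes in the library of MHs and the library of SHs. Bars are 95% Clopper-Pearson intervals of counting error, and the levels span from 1.06 RPM for Bmp6 in MHs to 1035 RPM for Trf in SHs.

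Levels were compared between genes as reads per kilobase of exon and 1000000 counted reads (RPKM). The length was that of the exons of all GENCODE M21 transcripts of a gene, merged. It can exceed that of the transcript expressed, as Fth1 had 3469 merged exon bases and 2062 in its longest transcript. The order between genes therefore depends on the length used, and the expressed transcripts were not determined. In MHs, the order was Trf (286 RPKM), Fth1 (164), Tfr2 (112), Hamp (75.7), Hfe (11.5), Slc40a1 (7.53), Tfrc (6.93), Hamp2 (3.03), Id1 (2.18) and Bmp6 (0.272). SHs had the same order, from 312 RPKM for Trf to 0.757 for Bmp6. In MHs the counting intervals of Slc40a1 (7.10 to 7.97) and Tfrc (6.44 to 7.45) overlapped, as did those of Hamp2 (2.04 to 4.33) and Id1 (1.58 to 2.94), so the order within these pairs was not resolved. In SHs no neighbours overlapped, and Hamp2 had 4.37 RPKM (3.59 to 5.28) and Id1 1.47 (1.15 to 1.85). With the longest transcript as length, Slc40a1 had 17.2 RPKM in MHs against 16.6 in SHs and stood above Hfe, which had 11.5 and 9.50.

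Hamp, the gene of hepcidin (mm10, chromosome 7, positions 30942368 to 30944032), had 527 reads in MHs against 1767 in SHs. These were 31.0 RPM (28.4 to 33.8) and 41.7 RPM (39.8 to 43.7), for a log2 ratio of 0.43 (0.29 to 0.57), or 1.34-fold higher in SHs. The counting intervals of its levels did not overlap. Hamp2, its neighbour at 30922372 to 30924681, had 30 reads in MHs against 108 in SHs. Its levels were 1.77 RPM (1.19 to 2.52) and 2.55 RPM (2.09 to 3.08), and the interval of its ratio, 0.51 on the log2 scale, ran from -0.07 to 1.16. The direction was the same as that of Hamp, but the depth did not resolve it.

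Since the transcripts of Hamp and Hamp2 were 92.4% identical, reads could be divided between them uncertainly. Of the 371 windows of 50 bases in the Hamp2 transcript, 60 occurred unchanged in that of Hamp. The sum of both genes does not depend on this division and was 32.8 RPM in MHs against 44.3 in SHs, for a log2 ratio of 0.43 (0.30 to 0.57). Hamp2 took 5.39% (3.66 to 7.60) of these reads in MHs and 5.76% (4.75 to 6.91) in SHs, shares whose intervals overlapped. Hamp thus held most of the hepcidin reads in both libraries.

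The genes that sense transferrin-bound iron stood close to equal in both libraries. Tfr2, the transferrin receptor typical of hepatocytes (chromosome 5, positions 137569840 to 137587481), had 486 RPM (476 to 497) in MHs and 480 (474 to 487) in SHs, from 8259 and 20340 reads. Its log2 ratio was -0.02 (-0.06 to 0.02), the narrowest of the 5 intervals that included 0. Tfrc, the receptor that takes up transferrin in most cells (chromosome 16, positions 32608920 to 32632794), had 728 reads and 42.9 RPM (39.8 to 46.1) in MHs and 1718 reads and 40.6 RPM (38.7 to 42.5) in SHs. Its log2 ratio was -0.08 (-0.21 to 0.05). Of the reads on both receptors, Tfr2 took 91.9% (91.3 to 92.5) in MHs and 92.2% (91.8 to 92.6) in SHs, and these intervals overlapped. Hfe (chromosome 13, positions 23702034 to 23710854) was the only sensor with a lower level in SHs beyond counting error, with 697 reads and 41.1 RPM (38.1 to 44.2) in MHs and 1438 reads and 33.9 RPM (32.2 to 35.8) in SHs. Its log2 ratio was -0.27 (-0.41 to -0.14), or 1.21-fold lower.

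**Figure D2:**
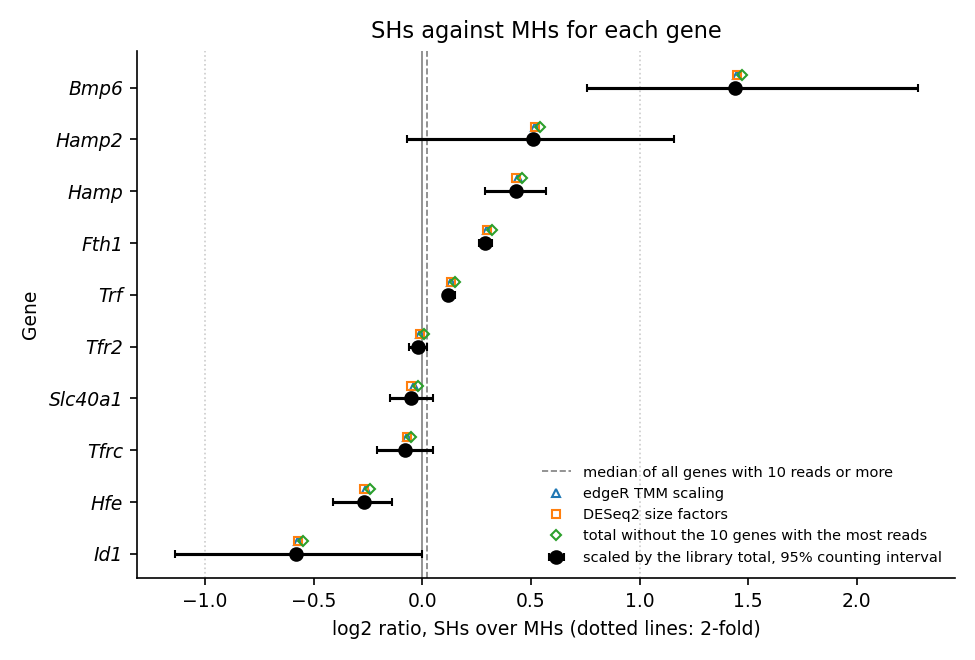
The log2 ratio of SHs over MHs for each gene, with its 95% counting interval and, as open symbols, the ratio under 3 other scalings. The ratio is highest for Bmp6 (1.44) and lowest for Id1 (-0.58), and the other scalings move each point by little against the width of most intervals.

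Trf and Fth1 had the highest levels of the 10 genes, both as RPM and per length. Trf, which encodes transferrin, the plasma carrier of iron (chromosome 9, positions 103204001 to 103230444), had 16137 reads and 950 RPM (936 to 965) in MHs and 43839 reads and 1035 RPM (1025 to 1045) in SHs. The log2 ratio was 0.12 (0.10 to 0.15), a small difference that the depth of this gene resolved. Trf overlaps Gm20425, which had 0 reads in both libraries.

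Fth1, the heavy chain of ferritin (chromosome 19, positions 9980598 to 9985098), had 9687 reads and 571 RPM (559 to 582) in MHs and 29570 reads and 698 RPM (690 to 706) in SHs. Its log2 ratio was 0.29 (0.26 to 0.32), or 1.22-fold higher in SHs. The light chain gene Ftl1 had 594 RPM in MHs against 575 in SHs, for a log2 ratio of -0.05 (-0.08 to -0.01). Fth1 took 49.0% (48.3 to 49.7) of the reads on both chains in MHs and 54.8% (54.4 to 55.2) in SHs, a larger share in SHs than in MHs. These shares were not corrected for length, and Fth1 has 3469 merged exon bases against 1340 for Ftl1. They therefore do not rank the levels of the 2 chains. Ferritin genes have processed copies whose reads can be confused with theirs. The copy Fth-ps2 had 2 reads in MHs against 8 in SHs, and Ftl2 had 590 and 1582, for a log2 ratio of 0.10 (-0.03 to 0.24).

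Slc40a1, the gene of ferroportin (chromosome 1, positions 45908068 to 45926523), had 1150 reads and 67.7 RPM (63.9 to 71.8) in MHs and 2763 reads and 65.2 RPM (62.8 to 67.7) in SHs. The log2 ratio was -0.05 (-0.15 to 0.05). Macrophages also express this exporter, and the summed macrophage markers were 22.6 RPM in MHs against 1.04 in SHs. Their part in its level was not tested. Of the genes shown with an iron-responsive element, Fth1 had an interval over 0, Ftl1 one under 0 that included 0 without the 10 genes with the most reads in the totals, and Slc40a1 and Tfrc ones that included 0.

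Bmp6, the BMP ligand of the iron pathway (chromosome 13, positions 38345107 to 38500302), differed most. With 18 reads in MHs, its level was 1.06 RPM (0.628 to 1.68), and in SHs it was 2.95 RPM (2.46 to 3.52). The log2 ratio was 1.44 (0.76 to 2.28), or 2.72-fold higher in SHs, and the intervals of the levels did not overlap. It remained the gene with the lowest level per length of the 10 in both libraries. Bmp6 shares 224 exon bases with Txndc5 on the opposite strand, and the sources used here do not state whether counting used the strand. Txndc5 had 3164 reads in MHs against 7635 in SHs, for a log2 ratio of -0.05 (-0.11 to 0.01).

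Id1, the BMP target (chromosome 2, positions 152736251 to 152737410), had 43 reads in MHs against 72 in SHs. Its levels were 2.53 RPM (1.83 to 3.41) and 1.70 RPM (1.33 to 2.14), and the interval of its log2 ratio, -0.58, ran from -1.14 to 0.00 and so just reached 0. The ligand and this target thus pointed in opposite directions, the first beyond counting error and the second not. Id1 is also expressed in endothelial cells, and the summed endothelial markers were 82.2 RPM in MHs against 4.49 in SHs. Their part in its level was not tested.

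**Figure D3:**
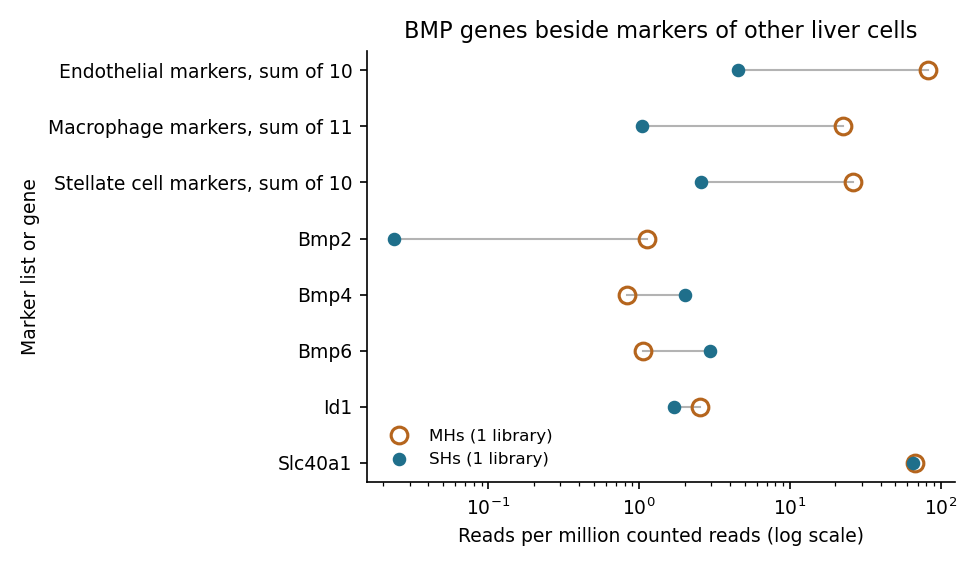
RPM (log scale) in MHs and SHs for the summed endothelial, macrophage and stellate markers and for Bmp2, Bmp4, Bmp6, Id1 and Slc40a1. The marker sums and Bmp2 are lower in SHs, Bmp4 and Bmp6 are higher, and the points of Slc40a1 lie on each other.

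Besides Bmp6, a list of 17 genes that feed the BMP arm of hepcidin control was examined, of which 16 had at least 10 reads. Intervals lay under 0 for 5 and over 0 for 3, beside 15.5% and 16.8% of all genes, and the median log2 ratio was -0.07. With each of the other scalings 3 lay under 0, since the intervals of Tmprss6 and Bmpr1a then included 0. Bmp2, a second endothelial ligand of this pathway, had 19 reads in MHs against 1 in SHs, for a log2 ratio of -5.02 (-10.94 to -2.91). Bmp4 had 14 and 85 reads, for a log2 ratio of 1.24 (0.46 to 2.21). Bmp6 took 48.6% (31.9 to 65.6) of the reads on Bmp6 and Bmp2 in MHs and 99.2% in SHs, with a lower bound of 95.7, so these shares differed beyond counting error, from 18 and 19 reads in MHs. The summed endothelial markers were 82.2 RPM in MHs against 4.49 in SHs. Their part in the level of Bmp2 and in these shares was not tested. Of the reads on Bmp6 and Bmp4, Bmp6 took 56.2% (37.7 to 73.6) in MHs and 59.5% (52.6 to 66.2) in SHs, and these intervals overlapped.

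The coreceptor and the protease of the pathway differed little. Hjv, the hemojuvelin coreceptor that the files list as Hfe2, had 47.4 RPM in MHs against 50.4 in SHs, for a log2 ratio of 0.09 (-0.03 to 0.21). Its interval lay over 0 without the 10 genes with the most reads in the totals. Tmprss6, the protease that restrains hepcidin, had the most reads of the list, with 412 and 400 RPM and a log2 ratio of -0.04 whose interval lay just under 0. Of the 5 receptors listed, Bmpr2 and Acvr2a had log2 ratios of -0.44 (-0.60 to -0.28) and -0.25 (-0.45 to -0.04). Bmpr1a had one of -0.17 (-0.32 to -0.01), and the intervals of Acvr1, 0.08 (-0.33 to 0.52), and Acvr2b, -0.59 (-1.20 to 0.06), included 0. Erfe, the gene of the hormone erythroferrone, listed as Fam132b, had 0 reads in both libraries.

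Targets of BMP and SMAD signals other than Id1 did not share a direction. Of 7 such genes with at least 10 reads, 3 had an interval over 0 and 1 under 0, beside 16.8% and 15.5% of all genes, and the median log2 ratio was 0.08. Smad9, with a log2 ratio of 0.41 (0.07 to 0.77), is on this list and on that of the BMP inputs, and was counted over 0 in both. Id2, the member with the most reads, had 150 RPM in MHs against 158 in SHs. Smad6, an inhibitory SMAD, had 44 and 63 reads, for a log2 ratio of -0.81 (-1.38 to -0.21), whereas Smad7, the other inhibitory SMAD, had one of -0.02 (-0.24 to 0.20). Bambi, a decoy receptor, had 17 and 80 reads, for a log2 ratio of 0.88 (0.15 to 1.76). Id4 had 0 reads in both libraries.

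The interleukin-6 arm acts on Hamp through STAT3, and 6 of its genes were examined. Intervals lay over 0 for 3 and under 0 for 1, beside 16.8% and 15.5% of all genes, and the median log2 ratio was 0.12. Socs3, the feedback inhibitor induced by STAT3, had 617 reads in MHs against 4292 in SHs. These were 36.3 and 101 RPM, for a log2 ratio of 1.48 (1.36 to 1.60), and it was the 1 gene of the list that was at least 2-fold different. Stat3 had 71.3 and 89.8 RPM, for a log2 ratio of 0.33 (0.24 to 0.43). Il6st, which encodes the signalling receptor gp130, was lower in SHs, with 94.9 and 71.3 RPM and a log2 ratio of -0.41 (-0.50 to -0.32), and Il6ra had one of 0.23 (0.02 to 0.45).

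**Figure D4:**
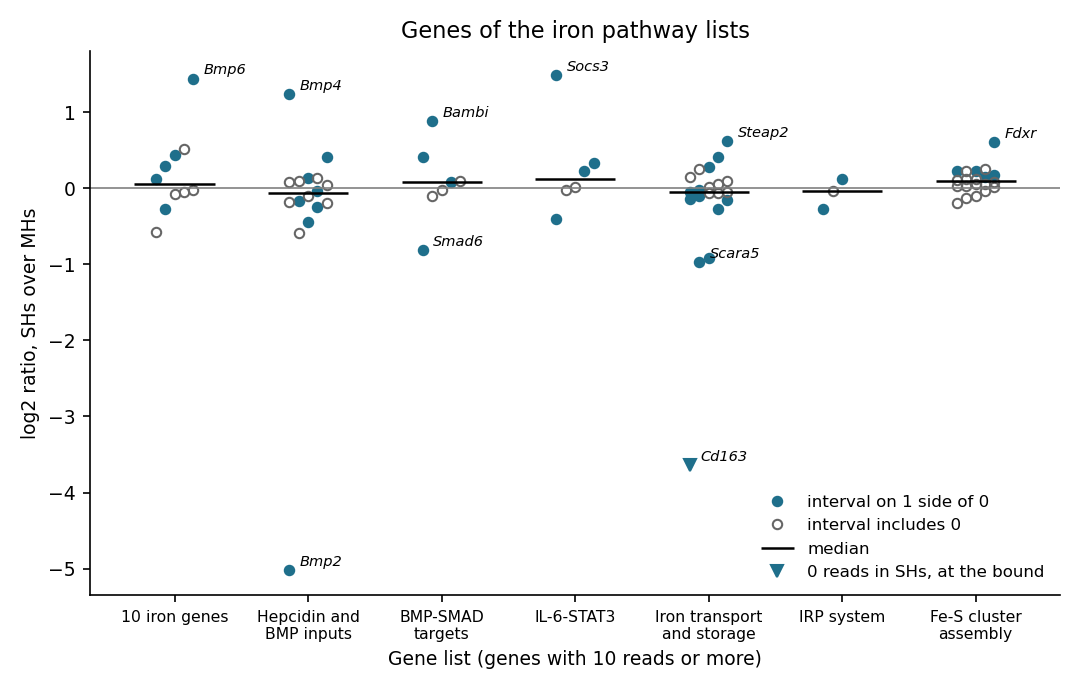
The log2 ratio of SHs over MHs for each gene with at least 10 reads in the 10 iron genes and the 6 pathway lists, with filled points for intervals on 1 side of 0, open points for intervals that include 0 and bars for medians. All medians lie near 0, and Socs3, Bmp6 and Bmp4 stand above the others, with Bmp2 and Cd163 (0 reads in SHs, drawn at its bound against 3 reads) below.

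Other genes of iron transport and storage were examined as a list of 25, of which 24 were counted and 20 had at least 10 reads. Intervals lay under 0 for 9 and over 0 for 3, beside 15.5% and 16.8% of all genes, and the median log2 ratio was -0.05. When the 10 genes with the most reads were left out of the totals, 6 lay under 0 and 7 over 0, and the intervals of Ftl1 and Hpx then included 0. Hpx, the heme carrier hemopexin, had the most reads, with 4066 RPM in MHs against 3984 in SHs. Cp, which encodes the ferroxidase ceruloplasmin, had 908 and 824 RPM, for a log2 ratio of -0.14 (-0.17 to -0.11). The importers of iron that is not bound to transferrin had intervals that included 0 with the library totals. Their log2 ratios were 0.05 (-0.01 to 0.12) for Slc39a14 and -0.06 (-0.22 to 0.10) for Slc11a2. The interval of Slc39a14 lay over 0 without the 10 genes with the most reads in the totals. Among the genes with at least 10 reads, the metalloreductase gene Steap2 had the highest ratio, 0.62 (0.29 to 0.97). Scara5, which encodes a ferritin receptor, had 340 reads in MHs against 433 in SHs, for a log2 ratio of -0.97 (-1.18 to -0.76). Cd163, the haemoglobin scavenger receptor of macrophages, had the lowest ratio, since its 15 reads in MHs faced 0 in SHs, which was at least 12.5-fold lower against a floor of 3 reads. The summed macrophage markers were 22.6 RPM in MHs against 1.04 in SHs. Their part in the level of Cd163 was not tested.

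The proteins that read iron-responsive elements were measured by 3 genes. Aco1, the gene of iron regulatory protein 1, had 220 RPM in MHs against 240 in SHs, for a log2 ratio of 0.12 (0.07 to 0.18). Ireb2, which encodes the second such protein, had 57.2 and 55.8 RPM with a log2 ratio of -0.04 (-0.14 to 0.07). Fbxl5, the iron-sensing ubiquitin ligase adaptor that removes it, had 15.7 and 12.9 RPM and a log2 ratio of -0.28 (-0.50 to -0.06). These genes therefore differed by less than Fth1 or about as much, and in both directions.

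**Figure D5:**
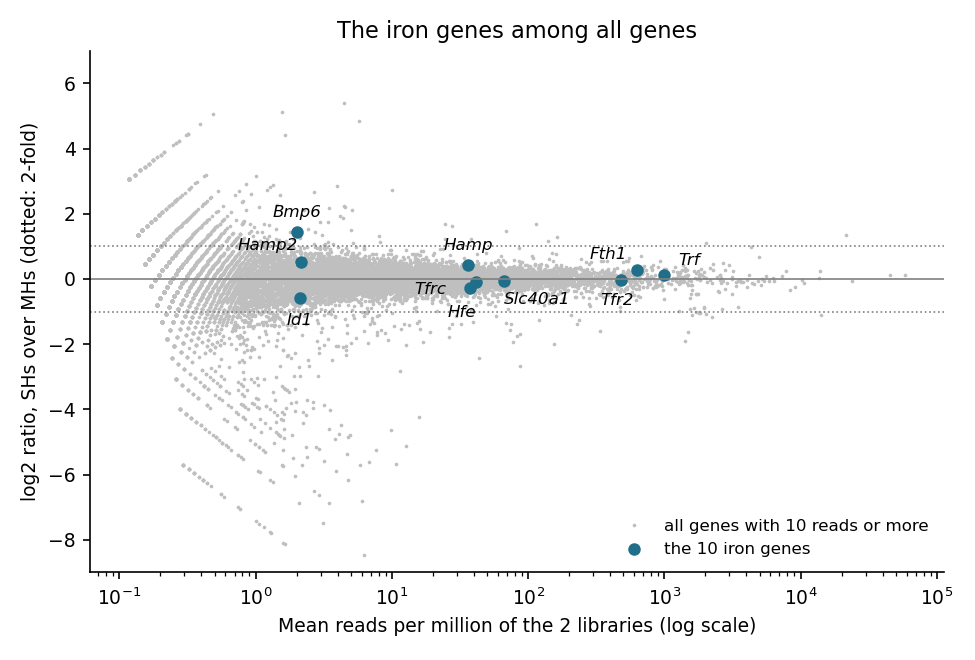
The log2 ratio of SHs over MHs against the mean RPM of the libraries (log scale) for all 15521 genes with at least 10 reads, with the 10 iron genes in colour. Only Bmp6 lies beyond a 2-fold line among the 10, and the spread of all genes widens toward low levels, where genes with 0 reads in a library are drawn with 0.5 added reads.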

How the data were processed

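Poly(A) RNA of SHs and of MHs was sequenced as 1 library each with the Ion Total RNA-Seq Kit on an Ion Proton system. The authors deposited whole read counts per gene symbol for each library, without normalization. According to the methods, reads were trimmed, aligned to mm10 in CLC Genomics Workbench and expressed as RPKM. The program, annotation and strand setting behind the deposited counts are not given in the sources used here, so reads of paralogs and overlapping genes are uncertain.

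Counts were divided by the library total. A count of 3 reads, the floor, was 0.177 RPM in MHs against 0.0708 in SHs. Log2 ratios with 0.5 added reads and 95% Clopper-Pearson intervals were computed with scipy 1.17.1, pandas 2.3.3 and numpy 2.4.6 under Python 3.11.15, and the calculation was tested on simulated counts. Genes with at least 10 reads were counted as called where the interval lay on 1 side of 0, or also where the ratio was at least 2-fold. Exon lengths, positions and transcripts came from GENCODE M21 of mm10, which held 39469 of the 43280 symbols, and promoters from RefSeq.

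The 10 genes and all lists were chosen with earlier results of these data known. Named beyond the 10 were, in each pathway list, the genes with the lowest ratio, the highest ratio and the most reads, and Hjv, Tmprss6, Smad6, Smad7, Ftl1, Cp, Slc39a14, Slc11a2, Aco1 and Ireb2. Chosen after their values were seen were Txndc5, Fth-ps2, Ftl2, Gm20425, Bmpr1a, Bmpr2, Acvr1, Acvr2a, Acvr2b, Smad9, Scara5, Stat3, Il6ra, Erfe, Id4 and the marker genes named singly. Of the listed symbols, 4 were found under an older name and 1 was not among the counted symbols. Other settings tried were size factors of DESeq2 1.42.0, TMM of edgeR 4.0.16 (both under R 4.3.3), totals without the 10 genes with the most reads, other added reads, read minimums, fold thresholds and lengths.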

Additional observations from a re-analysis of the deposited data

How the results depend on the processing

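No paired analysis was possible because neither condition had a second library, so leaving out a library was not possible either. The other scalings moved the median of all genes by at most 0.032 on the log2 scale. Across the scalings and read minimums, the number of iron genes with an interval over 0 was 4 and under 0 was 1, and the direction of each of these 5 genes was kept. Without the 10 genes with the most reads in the totals, the ratio of Trf was 0.15, the share of reads on the 10 iron genes was 0.278% in MHs and 0.311% in SHs, 7 transport and storage genes had an interval over 0, and 20.1% of all genes had an interval over 0 and 13.4% under 0. Of the BMP inputs, 3 had an interval under 0 with that scaling, with TMM and with DESeq2's size factors. At 4-fold, 0 of the 10 genes were higher, 391 of all genes lay below and 137 above that threshold, and 543 lay above one of 1.5-fold. With at least 100 reads, 128 of all genes were at least 2-fold lower and 61 higher, and the marker genes with an interval under 0 were 6 endothelial, 3 stellate and 0 macrophage genes, since fewer genes remained. Depth limits Hamp2, Id1 and Bmp6, with 30, 43 and 18 reads in MHs.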

Other observations

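Genes of iron-sulfur cluster assembly, the main use of iron in mitochondria besides heme, were examined as a list of 20, and all had at least 10 reads. Intervals lay over 0 for 5 and under 0 for 0, beside 16.8% and 15.5% of all genes, and the median log2 ratio was 0.10, beside 0.02 for all genes. Fdxr, the ferredoxin reductase, had the highest ratio, with 198 reads in MHs against 755 in SHs, or 11.7 and 17.8 RPM, for a log2 ratio of 0.61 (0.38 to 0.85). Of the ferredoxin genes on the list, Fdx1 had 42.2 and 47.6 RPM, for a log2 ratio of 0.17 (0.05 to 0.30). Fdx1l had 9.31 and 11.1 RPM, for a log2 ratio of 0.25 (-0.01 to 0.52), and its interval lay over 0 with each of the other scalings. Hspa9, a mitochondrial chaperone and the member with the most reads, had 166 and 194 RPM, for a log2 ratio of 0.22 (0.16 to 0.29). Lyrm4 had the lowest ratio, -0.19 (-0.55 to 0.18). Fdx1, Fdx1l and Alas2 were chosen after their values were seen.

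Alas2, the first enzyme of heme synthesis in red cell precursors, had 2008 reads in MHs against 5784 in SHs, for a log2 ratio of 0.21. The haemoglobin genes had 0 and 9 reads for Hba-a1, 1 and 5 for Hba-a2, 0 and 6 for Hbb-bs, and 0 in both for Hbb-bt. The part of red cell precursors in the level of Alas2 was not tested.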
